A study of Homo sapiens with 10 samples.

Results

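Cytosolic ribosomal protein genes were followed across 10 single-color microarrays of PC-3 cells, a line from a bone metastasis of human prostate adenocarcinoma that grows without androgen. Members were the genes whose name on the array is RPL or RPS followed by a number, with an optional A, L, X or Y, together with RPLP0, RPLP1, RPLP2 and RPSA. Kinases of the RPS6K family and pseudogenes were left out. The rule found 87 of the 30484 gene names on the array, measured by 208 probes, and each gene was read from its brightest probe. Of these, 84 passed the background filter. They were 76 canonical genes, of which 30 encode proteins of the small (40S) subunit and 46 proteins of the large (60S) subunit, and 8 paralogues, RPL3L, RPL7L1, RPL10L, RPL22L1, RPL26L1, RPL36AL, RPL39L and RPS27L. The filter removed RPS4Y1, RPS4Y2 and RPSA, which were well above background on 0 of 10 arrays. For RPSA that holds for the probe carrying this name, which was designed on a cDNA accession outside RefSeq. All 84 genes kept were well above background on all 10 arrays, and 0 were saturated, so the filter did not select them by treatment.

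PC-3 cells were sampled untreated at 0 h, or after 24 h with the solvent DMSO, 60 µM luteolin (a plant flavonoid), 60 µM gefitinib (an inhibitor of the EGF receptor kinase) or the same doses of the 2 drugs together, with 2 arrays per group labelled as biological replicates. The drugs were dissolved in DMSO, and all cells grew in serum-containing medium. For the 6 drug-treated arrays the label and the name of the scanner file state different treatments. Groups here follow the labels, so each is called by its label, and every direction given for a drug rests on that choice. On the arrays labelled luteolin the file name carries gefitinib, on those labelled gefitinib it carries both drugs, and on those labelled luteolin plus gefitinib it carries luteolin. KRT8, KRT18, KRT19 and CDH1, which mark epithelial cells, were well above background on 10 of 10 arrays. PTPRC, a leukocyte marker, was above it on 0. COL1A1 and PECAM1, of fibroblasts and endothelium, were above it on 9 and 10 arrays, with signals of 14.6 to 274 and 24.2 to 292, where CDH1 had 247 to 584. The part of other cell types in the results was not tested. KLK3, which encodes prostate-specific antigen and is known to be silent in this line, had 1 of 3 probes bright on 10 of 10 arrays.

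A ribosome joins ribosomal RNAs to a fixed set of proteins, each needed in a fixed number, and the genes for them are spread over almost all chromosomes but are expressed together at very high levels. Most of their mRNAs start with a cytosine followed by an unbroken run of pyrimidines, the terminal oligopyrimidine or TOP motif, through which mTOR signalling and the protein LARP1 set how much they are translated and how stable they are. A few genes have a paralogue that encodes a close relative of the protein and is often tissue-restricted or responsive to stress.

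The starts of the transcripts show which members carry the motif. In the RefSeq promoter table for GRCh38.p14, 61 of the 76 canonical genes have an entry, and 45 of them, or 73.8%, have at least 1 annotated start that is a C followed by 4 or more bases that are each C or T on the gene's strand. Among all 27305 genes in the table the share was 5.14%. Of the 8 paralogues 6 have an entry, and RPL22L1 is the 1 that meets the pattern. Below, each window runs from 15 bases before to 15 bases from the RefSeq start, and the capitals mark the pyrimidine run at that start. RPL11, RPS6, RPLP0 and RPL39 are shown as canonical examples, and the others as canonical gene and paralogue, because several paralogues are described one by one further on. All canonical genes shown meet the pattern, as 45 of the 61 do, whereas RPL3, for example, does not. RPL11 has another annotated start, at chr1:23691779, without the pattern.

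RPL11 (chr1:23691791-23691820, plus strand): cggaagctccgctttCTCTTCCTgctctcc
RPS6 (chr9:19380222-19380251, minus strand): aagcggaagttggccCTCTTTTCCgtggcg
RPLP0 (chr12:120201097-120201126, minus strand): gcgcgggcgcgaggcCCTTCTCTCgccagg
RPL39 (chrX:119791616-119791645, minus strand): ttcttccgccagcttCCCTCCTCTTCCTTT
RPS27 (chr1:153990747-153990776, plus strand): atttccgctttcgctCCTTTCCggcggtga
RPS27L (chr15:63157463-63157492, minus strand): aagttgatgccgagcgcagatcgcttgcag
RPL22 (chr1:6199581-6199610, minus strand): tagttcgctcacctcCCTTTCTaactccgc
RPL22L1 (chr3:170870181-170870210, minus strand): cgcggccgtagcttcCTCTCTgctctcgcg
RPL36A (chrX:101390996-101391025, plus strand): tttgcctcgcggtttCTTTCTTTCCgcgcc
RPL36AL (chr14:49620612-49620641, minus strand): ctgtttcttccctttcctgttaggcgagag
RPL7L1 (chr6:42879601-42879630, plus strand): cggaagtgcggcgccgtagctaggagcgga

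RPS27L and RPL7L1 have no pyrimidine run at the annotated start, while the start of RPL22L1 resembles that of a canonical gene. In RPL36AL the run lies mostly before the annotated start and is broken by a G within the first bases after it. A match is a description of these letters at an annotated start, and absence of a match says only that the pattern is not at that position.

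The canonical genes were among the brightest on every array. The median unscaled signal of the 76 genes was 113965 and 109180 at 0 h, 122669 and 116090 with DMSO, 113016 and 97650 with the luteolin label, 120146 and 97456 with the gefitinib label, and 106050 and 95851 with the combination label. The luteolin and gefitinib labels overlapped the control arrays, and the combination label lay below all 4 of them by a small margin. The signal of the remaining genes did not stay level. The median over all 20961 genes kept was 674 and 631 with DMSO, 610 and 531 with the luteolin label, 308 and 300 with the gefitinib label, and 452 and 272 with the combination label. The 75th percentile of the non-control spots, the value to which each array was scaled, moved in the same way, from 1350 and 1283 with DMSO to 651 and 628 with the gefitinib label. The canonical genes therefore made up a larger share of the summed signal, at 11.7% and 10.9% with the gefitinib label and 11.1% and 12.1% with the combination label against 9.25% and 9.05% with DMSO. With the luteolin label the share was 9.75% and 9.95%, also above both DMSO arrays, and at 0 h it was 8.68% and 9.33%. Arrays measure RNA relative to the labelled total, so more of a transcript per cell and less of the other RNA cannot be told apart.

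**Figure D1:**
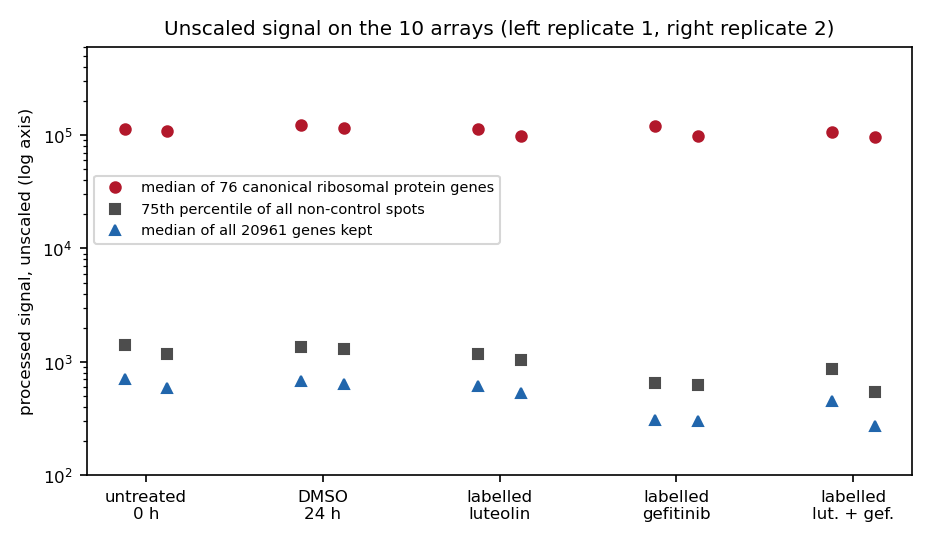
Unscaled processed signal (log axis) on each of the 10 arrays for the median of the 76 canonical ribosomal protein genes, the 75th percentile of the non-control spots and the median of all 20961 genes kept. The ribosomal protein median stayed between 95851 and 122669, whereas the all-gene median was 300 to 308 with the gefitinib label and 631 to 674 with DMSO.

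The comparison of DMSO at 24 h with untreated cells at 0 h covered the solvent and a day of culture together. The 2 cannot be told apart, since no untreated cells were sampled at 24 h. With levels given as log2 of the signal over the 75th percentile of the array, 0 members were raised and 0 lowered at an adjusted p under 0.05 by limma, against 0.0239% and 0.00954% of all genes, and 1 member had an unadjusted p under 0.05. The median change of the 84 members was 0.05 on the log2 scale, with a range from -0.26 to 0.42. The largest was that of RPS27L, at 2.88 and 3.25 at 0 h and 3.44 and 3.54 with DMSO (adjusted p = 0.809). RPL39L and RPS24 came next on that side, with changes of 0.27 and 0.22, and RPL11, RPL10L and RPS26 on the other, with -0.20, -0.16 and -0.26. The median SD between the 2 DMSO arrays was 0.0315 over the members, smaller than the 0.0898 over all genes, so the solvent control was tight for these genes.

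With the luteolin label against DMSO, few ribosomal protein genes passed the test. RPS27L was the 1 member raised and 0 were lowered, where 13.8% of all genes were raised and 11.7% lowered. The median change was 0.14 for the members and 0.08 for all genes. RPS27L, whose protein is a relative of the small-subunit protein RPS27, read 3.44 and 3.54 with DMSO and 4.23 and 4.18 with the luteolin label. These groups do not overlap, as was the case for many genes with 2 arrays a group, since 41.1%, 50.2% and 46.5% of all genes lay wholly above DMSO with the luteolin, gefitinib and combination labels and 32.4%, 32.1% and 29.0% wholly below. The change of RPS27L was 0.72 (SE 0.18, adjusted p = 0.0195), but without scaling it was 0.47 with an adjusted p of 0.281. RPL10L, RPL34, RPS18 and RPL26 had the next largest increases, from 0.34 to 0.45, and RPL39L, RPL7L1, RPL26L1, RPL4 and RPL22L1 the largest decreases, from -0.47 to -0.13, with adjusted p of 0.057 and above. Quantile normalization added RPL10L and RPL34 to the raised genes, with changes of 0.49 and 0.45, and RPL39L to the lowered, with -0.49.

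With the gefitinib label against DMSO, nearly the whole set was raised under the percentile scaling, which was not so after quantile normalization or without scaling. At the percentile scaling 80 of 84 members were raised and 1 was lowered, where 34.1% of all genes were raised and 21.7% lowered. The median change was 0.96 for the members and 0.24 for all genes. At an additional threshold of 2-fold 37 were raised and 1 lowered, against 16.6% and 14.1% of all genes. Of the canonical genes 75 of 76 were raised, the exception being RPL7A. After quantile normalization, which gives every array the same distribution of values, the median change was 0.08, and 5 members were raised and 2 lowered, against 24.2% and 23.8% of all genes. A set already among the brightest genes on every array has limited room to rise as a group under this normalization, and how much was not tested. A median near zero after it therefore does not decide whether the set moved. Without any scaling the median change of the members was -0.08 and that of all genes -0.80, with 0 members raised and 3 lowered. The shares of all genes called without scaling are not reported here, for this label or the others. Scaling each array to its median gave 80 raised and 1 lowered at a median of 1.01. The direction of the group in this comparison thus depended on the scaling. Under the percentile scaling the SD of the change over the 76 canonical genes was 0.19, against 1.10 over all genes.

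The comparison of the combination label with DMSO gave a smaller median change that also depended on the scaling. At the percentile scaling 68 members were raised and 2 lowered, where 25.6% of all genes were raised and 15.7% lowered, and the median change was 0.79 for the members and 0.19 for all genes. At 2-fold 8 were raised and 0 lowered, against 12.1% and 7.45% of all genes. After quantile normalization 6 were raised and 2 lowered, against 17.9% and 20.1% of all genes, at a median of 0.07, and without scaling 0 were raised and 4 lowered at a median of -0.16. The SD of the change over the canonical genes was 0.17, against 0.93 over all genes. The 2 arrays with this label differed from each other, since 83 of the 84 members were lower on replicate 1 than on replicate 2 by a median of 0.51, and their 75th percentiles were 865 and 539.8. Leaving out replicate 1 or replicate 2 of this label gave a median change of 1.02 or 0.54, with 79 or 31 members raised, and leaving out DMSO replicate 1 or replicate 2 left 11 or 5 raised at medians of 0.79 and 0.75. The comparisons with DMSO share the same 2 DMSO arrays.

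**Figure D2:**
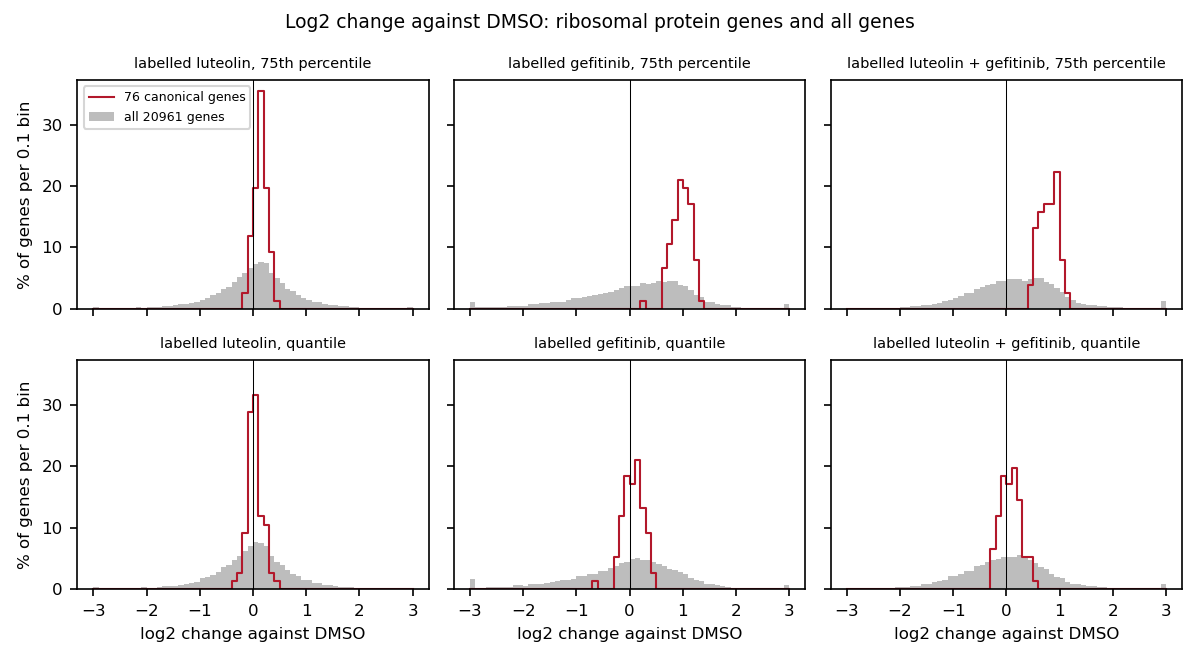
Share of genes (%) in each bin of 0.1 of log2 change against DMSO, for the 76 canonical ribosomal protein genes (line) and all 20961 genes (bars), with changes beyond 3 in either direction gathered in the end bins. The canonical genes form a narrow peak in every panel, which lies near 1 with the gefitinib label under the 75th-percentile scaling and near 0 after quantile normalization.

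Bright genes outside the set were also raised more often than all genes with these labels. Among the 1201 genes that are no members and had a mean level of 4 or more, a range that holds all 76 canonical genes, the median change was 0.85 with the gefitinib label and 0.58 with the combination label under the percentile scaling, and 0.07 and 0.05 after quantile normalization. With the gefitinib label 74.3% of them were raised, and with the combination label 48.6%, against 34.1% and 25.6% of all genes and 80 and 68 of the 84 members. With the luteolin label 70 of the 1201 were raised and 154 lowered, at a median of 0.03. The part of brightness in the change of the members was not tested. The arrays lay on 3 slides. Within a slide the canonical median of each drug label against DMSO was positive under the percentile scaling, as over all arrays. That of DMSO against 0 h was -0.05 on slide 2. On slide 1 the canonical median was 1.06 for the gefitinib label and 0.52 for the combination label against DMSO, and on slide 2 it was 1.09 for the combination label, which had 1 array on each. After quantile normalization these were 0.09, 0.07 and 0.11. No slide holds DMSO and the second array labelled gefitinib.

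The subunits did not separate. Under the percentile scaling the median change with the gefitinib label was 0.99 for 43 large-subunit proteins outside the stalk, 0.96 for the 30 small-subunit proteins and 0.99 for the 3 P-stalk proteins, and with the combination label it was 0.79, 0.80 and 0.96. After quantile normalization the same medians were 0.08, 0.07 and 0.05 with the gefitinib label and 0.10, 0.05 and 0.16 with the combination label. RPLP0, RPLP1 and RPLP2 form the stalk that recruits translation factors to the ribosome. RPLP0, often used as a reference gene, read 7.68 and 7.73 with DMSO, 7.59 and 7.59 with the luteolin label, 8.49 and 8.35 with the gefitinib label and 8.10 and 8.46 with the combination label. Its changes were 0.71 and 0.58 with the latter labels (adjusted p = 0.00854 and 0.0275) and turned to -0.20 and -0.21 after quantile normalization. RPLP1 changed by 1.14 and 0.96 and RPLP2 by 0.99 and 1.07 under the percentile scaling, and after quantile normalization the changes of both genes lay between 0.05 and 0.24 with adjusted p of 0.181 and above.

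RPL5 and RPL11 bind the ubiquitin ligase MDM2 when ribosome assembly is disturbed. RPL11 read 5.96 and 5.96 with DMSO, 7.30 and 7.11 with the gefitinib label and 6.63 and 7.14 with the combination label, without overlap of either with DMSO. Its change with the gefitinib label was 1.25 (SE 0.19, adjusted p = 0.00167), and 0.38 with an adjusted p of 0.0441 after quantile normalization. RPL5 changed by 0.83 with the gefitinib label (adjusted p = 0.00723), and by 0.00 after quantile normalization. RPS6, the small-subunit protein that S6 kinases phosphorylate, changed by 0.85 with the gefitinib label (adjusted p = 0.00859) and by -0.04 after quantile normalization.

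With the gefitinib label the largest increases under the percentile scaling were those of RPL3L, RPS26, RPL36, RPL37A and RPL39, from 1.26 to 1.37. RPL36 read 6.05 and 6.08 with DMSO and 7.53 and 7.16 with the gefitinib label, and it was raised after quantile normalization too, by 0.39 (adjusted p = 0.0411), as was RPL39 by 0.40 (adjusted p = 0.0377). Without scaling 0 members were raised, these included. At the other end stood RPL7L1, RPL7A, RPL22L1, RPS27L and RPS3A. RPL7A, a large-subunit protein, read 6.48 and 6.51 with DMSO and 7.01 and 6.44 with the gefitinib label, so the groups overlapped. Its change was 0.23 (adjusted p = 0.396), and it was lowered after quantile normalization (-0.64, adjusted p = 0.0178) and when each array was centred on the median of the members (-0.69, adjusted p = 0.0173). Its 3 dimmer probes differed, with -0.53, -0.24 and 0.07 after quantile normalization (adjusted p = 0.0431, 0.204 and 0.698), and the dimmest was raised under the percentile scaling by 0.48 (adjusted p = 0.0453). RPL22, which binds RNA as well as taking part in the large subunit, read 4.70 and 4.68 with DMSO and 5.94 and 5.92 with the gefitinib label and was raised after quantile normalization by 0.47 with the gefitinib label and 0.45 with the combination label (adjusted p = 0.0189 and 0.0257). The 4 kept probes of RPL22 changed by 0.73 to 1.27 with the gefitinib label under the percentile scaling, with 3 of them raised. With the combination label they changed by -0.07 to 1.27, with 2 raised, so they did not all go the same way. RPL22 was picked out after its values were seen.

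With the combination label RPL37A, RPL36, RPL38 and RPLP2 were among the largest increases, at 1.07 to 1.10 under the percentile scaling. RPL36 read 6.05 and 6.08 with DMSO and 6.84 and 7.48 with the combination label, without overlap. After quantile normalization RPL36 was still raised, by 0.40 (adjusted p = 0.0437), and RPL37A, RPL38 and RPLP2 were not, with changes of 0.31, 0.26 and 0.24. RPL39L and RPS27L fell, and RPL7L1, RPL26L1 and RPL3 completed the low end with changes of 0.12, 0.27 and 0.43 and adjusted p of 0.0797 and above.

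**Figure D3:**
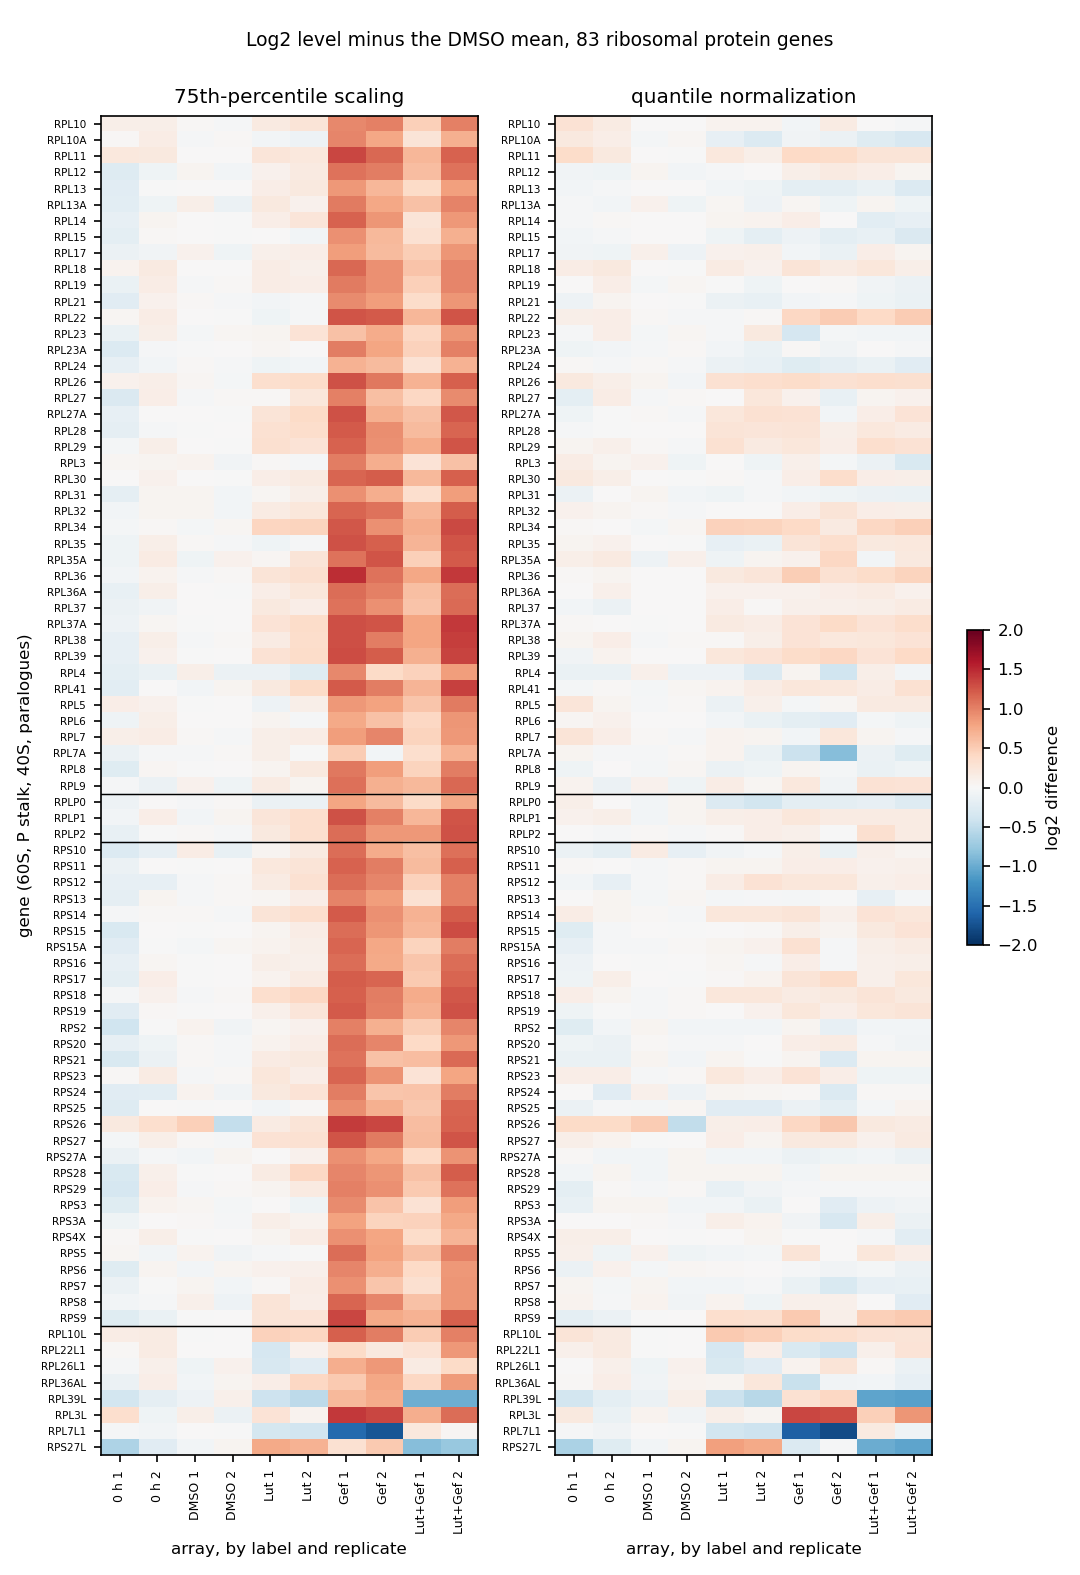
Log2 level of 83 of the 84 ribosomal protein genes on each of the 10 arrays minus the mean of its 2 DMSO arrays, under the 75th-percentile scaling (left) and quantile normalization (right), with lines between large-subunit, P-stalk, small-subunit genes and paralogues. Red is above and blue below DMSO. The canonical genes of the arrays with the gefitinib and combination labels are red on the left and pale on the right, and RPL7L1, RPL39L, RPS27L and RPL3L have strongly coloured cells on both sides.

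Between the drug labels the counts again depended on the scaling. Under the percentile scaling the gefitinib label had 76 members higher and 1 lower than the luteolin label, where 34.4% and 26.4% of all genes were, and the combination label had 56 higher and 2 lower than the luteolin label, where 24.0% and 17.6% were. After quantile normalization these were 5 and 3, and 3 and 2. The shares over all genes for these are not reported here, so the counts do not set the members apart. The count of 76 fell to 39 without gefitinib replicate 1 and to 47 without luteolin replicate 1. The count of 56 lay between 2 without luteolin replicate 1 and 78 without combination replicate 1, and was 4 without luteolin replicate 2, 8 without combination replicate 2, 36 without either 0 h array and 29 without either DMSO array. The combination label against the gefitinib label had 1 member higher, RPL7L1, and 3 lower, RPL39L, RPS27L and RPL26L1, where 24.1% and 22.6% of all genes were. Without regard to the test, 35.0% of all genes lay wholly lower with the gefitinib than with the luteolin label, and 28.9% and 38.1% wholly lower with the combination label than with the luteolin and gefitinib labels.

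RPS27L differed most between the luteolin and combination labels. It read 4.23 and 4.18 with the luteolin label, 3.80 and 4.01 with the gefitinib label, and 2.63 and 2.73 with the combination label, so the 3 groups do not overlap and the combination label lies below DMSO and 0 h. Against DMSO the change with the combination label was -0.81 (SE 0.18, adjusted p = 0.0096), and it was -1.02 after quantile normalization and -1.75 without scaling, each past the threshold. Against 0 h in place of DMSO it was -0.39 with an adjusted p of 0.111. Leaving out DMSO replicate 1 or DMSO replicate 2 gave adjusted p of 0.0513 and 0.0714, and leaving out either DMSO or luteolin array took the rise with the luteolin label to adjusted p between 0.0805 and 0.128. Against the luteolin label it was -1.53 (adjusted p = 0.000754), and against the gefitinib label -1.22 (adjusted p = 0.000902). Its probe lies at chr15:61234919-61234978 on hg18.

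RPL39L, the paralogue of the short large-subunit protein RPL39 and best known from the testis, read 2.01 and 2.22 with DMSO, 1.70 and 1.59 with the luteolin label, 2.76 and 2.85 with the gefitinib label, and 1.14 and 1.15 with the combination label. None of these groups overlap. The change with the combination label against DMSO was -0.97 (SE 0.16, adjusted p = 0.00329), and it was -1.07 after quantile normalization and -1.92 without scaling. The change with the gefitinib label was 0.69 (adjusted p = 0.00711), but it was 0.35 with an adjusted p of 0.0789 after quantile normalization and -0.35 without scaling. The combination label was below the gefitinib label by 1.66 (adjusted p = 0.000141), at -1.42 after quantile normalization. Its canonical partner RPL39 read 6.70 and 7.34 with the combination label, above both DMSO arrays, of which DMSO replicate 1 read 5.98.

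RPL7L1, whose protein resembles RPL7 and takes part in ribosome assembly, read 1.82 and 1.79 with DMSO, 1.45 and 1.42 with the luteolin label, 0.25 and 0.09 with the gefitinib label, and 2.01 and 1.84 with the combination label. The arrays with the gefitinib label are the low ones. Their change against DMSO was -1.63 (SE 0.15, adjusted p = 0.000184), with -1.71 after quantile normalization and -2.68 without scaling, and a second probe of the gene gave -1.66 (adjusted p = 0.000188). The combination label was above the gefitinib label by 1.75 (adjusted p = 9.22e-05). Against DMSO the combination label changed by 0.12 under the percentile scaling and by -0.83 without scaling (adjusted p = 0.535 and 0.0465).

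The remaining paralogues varied in how far they lay from the canonical genes. RPL22L1 read 4.26 and 4.27 with DMSO, 4.66 and 4.46 with the gefitinib label and 4.55 and 5.13 with the combination label, with changes of 0.29 and 0.58 that did not pass the test (adjusted p = 0.313 and 0.0754), and relative to the members it fell with the gefitinib label (-0.63, adjusted p = 0.0227). RPL26L1 changed by 0.80 with the gefitinib label (adjusted p = 0.00458) and by 0.27 with the combination label, and after quantile normalization by 0.16 and -0.04. RPL36AL changed by 0.65 and 0.64 (adjusted p = 0.0272 and 0.0391), and after quantile normalization by -0.26 and -0.11. RPL10L changed by 1.11 and 0.75 (adjusted p = 0.00231 and 0.0151), and after quantile normalization by 0.35 and 0.26. RPL3L, best known from muscle, was the dimmest member, at levels between -4.54 and -3.02, and was raised by 1.37 with the gefitinib label (adjusted p = 0.00173) and 1.32 after quantile normalization, while without scaling the change was 0.33 (adjusted p = 0.372). The probes of RPL10L, RPL26L1 and RPL36AL lie in transcripts close in sequence to those of much brighter canonical genes, and the share of their signal that comes from those was not tested.

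**Figure D4:**
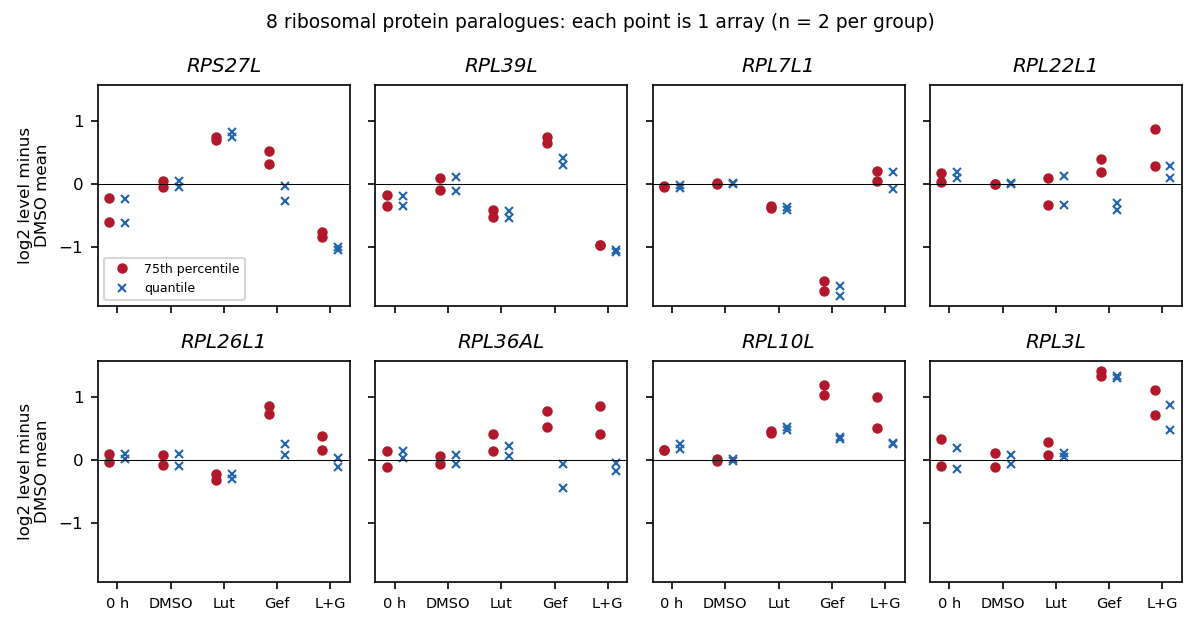
Log2 level of the 8 paralogues on each array minus the mean of the gene's 2 DMSO arrays, under the 75th-percentile scaling (circles) and quantile normalization (crosses), by label. RPS27L and RPL39L are low with the combination label and RPL7L1 with the gefitinib label under both scalings, whereas the positions of RPL22L1, RPL26L1, RPL36AL and RPL10L shift with the scaling.

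Several probes allowed a check within genes. For 56 members more than 1 probe was kept, and with the gefitinib label all probes of the gene changed in the same direction for 53 of them, as they did with the combination label for 53. RPS26 was the 1 member with probes called in opposite directions. Its brightest probe read 7.07 and 6.11 on the DMSO arrays, a wider gap than in any other canonical gene, and 7.99 and 7.92 with the gefitinib label, a change of 1.36 (adjusted p = 0.0072). Its dimmest probe, with a mean signal of 93.5, changed by -0.84 with the gefitinib label and -0.97 with the combination label (adjusted p = 0.00345 and 0.0033). The remaining 2 probes changed by 0.88 and 0.58 with the gefitinib label.

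Genes outside the ribosome whose mRNAs carry TOP motifs were read from a list of 20 translation factors and relatives. Of 13 with a promoter entry, 12 had the pattern at a RefSeq start. With the gefitinib label 16 of 20 were raised and 0 lowered, at a median of 0.82, and with the combination label 11 were raised and 1 lowered, at 0.66. After quantile normalization 0 were raised and 1 lowered, and 1 raised and 3 lowered, at medians of 0.01 and -0.01. With the luteolin label 1 was raised and 1 lowered, where 13.8% and 11.7% of all genes were. Of all genes 34.1% were raised and 21.7% lowered with the gefitinib label, and 25.6% and 15.7% with the combination label. After quantile normalization these shares were 24.2% and 23.8%, and 17.9% and 20.1%. EIF4B, a cofactor of the helicase that opens mRNA leaders, read 2.73 and 2.69 with DMSO, 3.35 and 3.55 with the luteolin label, 3.50 and 3.46 with the gefitinib label and 3.85 and 4.26 with the combination label. It was above DMSO on all 6 drug-labelled arrays, by 0.74, 0.77 and 1.34 (adjusted p = 0.0175, 0.00739 and 0.00168), and after quantile normalization it was raised with the luteolin and combination labels and changed by 0.33 with the gefitinib label (adjusted p = 0.0731). HNRNPA1, an RNA-binding splicing factor, fell with the luteolin label by 1.35 on the log2 scale (adjusted p = 0.00608), from 5.29 and 5.34 to 4.16 and 3.78. With the gefitinib label it read 5.99 and 5.74, above both DMSO arrays, and with the combination label 4.50 and 5.17. HNRNPA1 was picked after its values were seen.

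The hosts of small nucleolar RNAs are transcripts whose introns yield guides for modifying ribosomal RNA, and most of those tested were raised with every drug label. Several are known as TOP transcripts, and 2 of 6, or 33.3%, had the pattern at a RefSeq start, GAS5 and SNHG8 not among them. Of 9 on the list 6 were tested. With the luteolin label 4 were raised and 0 lowered at a median of 0.78, with the gefitinib label 5 were raised and 1 lowered at 1.09, and with the combination label 5 were raised and 0 lowered at 0.86, where 13.8%, 34.1% and 25.6% of all genes were raised. After quantile normalization the raised were 4, 4 and 5. GAS5 read 1.00 and 0.96 with DMSO, 2.51 and 2.58 with the luteolin label, 2.79 and 2.44 with the gefitinib label and 1.82 and 2.05 with the combination label, and changed by 1.57, 1.64 and 0.96 (adjusted p = 0.00102, 0.000352 and 0.00504). ZFAS1, SNHG8 and SNHG5 were raised with each of the 3 labels too, by 0.73 to 1.41, and also after quantile normalization. The comparisons share the DMSO arrays. GAS5 RNA is known to be degraded by nonsense-mediated decay as it is translated.

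Factors that assemble and export the ribosome were mostly lowered with the luteolin label. Of 28, 15 were lowered and 0 raised, where 11.7% of all genes were lowered, with a median change of -0.73, and 16 were lowered after quantile normalization. BOP1, which acts in the maturation of the large subunit, read 2.52 and 2.34 with DMSO and 0.82 and 0.86 with the luteolin label, a change of -1.59 (adjusted p = 0.00083). NOP56 and NOP58, core proteins of the particles that methylate ribosomal RNA, fell by 1.09 and 1.15 on the log2 scale (adjusted p = 0.00512 and 0.00413). With the gefitinib label 6 were raised and 9 lowered at a median of 0.00, and after quantile normalization 3 were raised and 14 lowered. GRWD1, a chaperone of the large-subunit protein RPL3, read 1.34 and 1.36 with DMSO and -1.25 and -0.93 with the gefitinib label, and BYSL, of small-subunit assembly, read 1.99 and 2.11 with DMSO and 0.04 and 0.23, with changes of -2.44 and -1.92 (adjusted p = 0.000119 and 0.000135). With the combination label 5 were raised and 7 lowered. Of all genes 34.1% were raised and 21.7% lowered with the gefitinib label and 25.6% and 15.7% with the combination label. GRWD1, BYSL, NOP56, NOP58 and BOP1 were picked as examples after their values were seen.

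**Figure D5:**
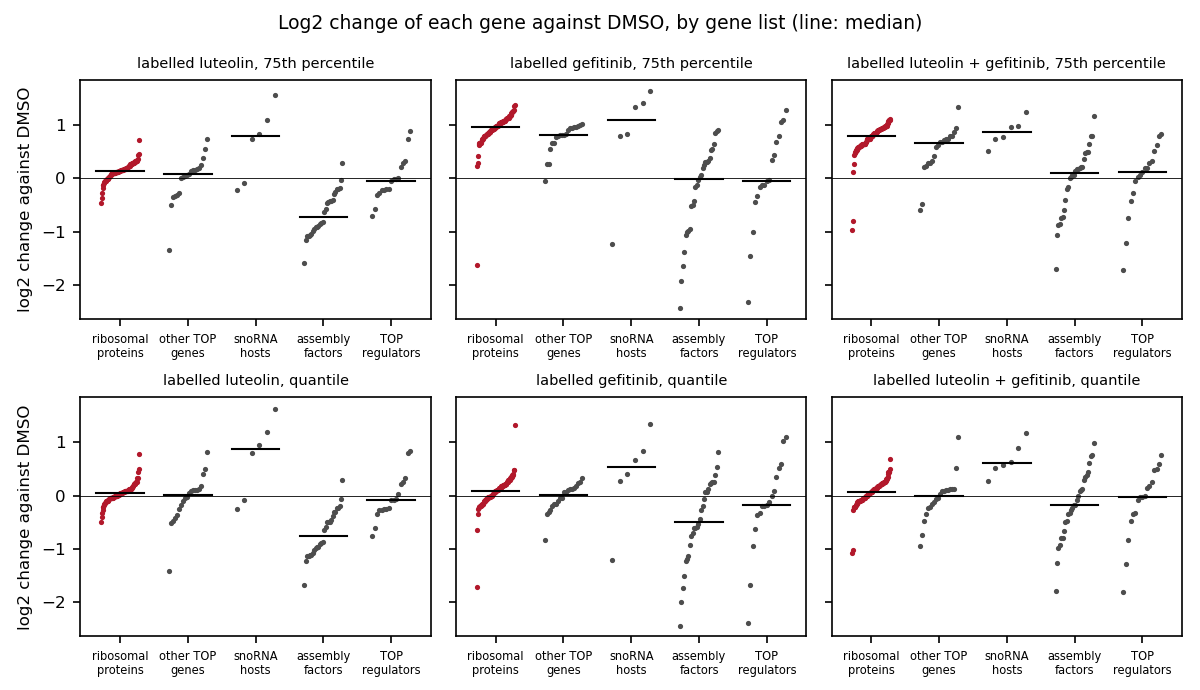
Log2 change against DMSO of each ribosomal protein gene (84) and of the genes of 4 lists, under the 75th-percentile scaling (top) and quantile normalization (bottom), with points sorted by value and a line at the median of each list. With the luteolin label the median of the assembly factors is -0.73 and that of the small nucleolar RNA hosts 0.78, and that of the ribosomal protein genes 0.14, and the medians of the ribosomal protein genes with the other labels drop to 0.08 and 0.07 after quantile normalization.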

How the data were processed

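Total RNA of PC-3 cells was labelled from oligo-dT primers with Cy3 and hybridized to Agilent Whole Human Genome arrays, 10 in all. The authors deposited intensities on a linear scale, the processed signals of Agilent Feature Extraction 10.7.3.1, with background and spatial trend subtracted and no normalization between arrays, and probe coordinates are on hg18. The deposited value table holds the same signals (45015 of 45015 spots equal within a relative tolerance of 1e-04).

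In R 4.3.3 with limma 3.58.1, control and outlier spots were left out. The remaining signals of each array were scaled to its 75th percentile (over 43376 spots that are no controls), log2-transformed and averaged per probe. Probes well above background (at least 50% of spots) on both arrays of at least 1 group were kept, 28776 of 41000, for 20961 gene names. Levels of different genes come from different probes and are not comparable with each other. A limma model with 5 groups was fitted to all 10 arrays (5 residual and 3.36 prior degrees of freedom), with Benjamini-Hochberg adjustment over all probes kept, and called at an adjusted p of 0.05. Of the members, 83 matched RefSeq by accession. A gene's value is that of its probe with the highest mean signal. Named genes were the 5 largest increases and decreases per drug label against DMSO among members that exceeded background on all 4 arrays compared, the 3 smallest adjusted p per direction for DMSO, all paralogues, RPL5, RPL11, RPS6, the P-stalk genes, members with opposed probes, and listed genes called with all 3 labels. Some genes that meet these rules are not reported here by name, but stay in all counts and medians. The members and lists were chosen with earlier results of these data known. Alternatives covered background correction, scaling, filters, blocks, fits and left-out arrays. The fit was tested on simulated data.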

Additional observations from a re-analysis of the deposited data

How the results depend on the processing

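The direction of the canonical genes depended on the scaling. Quantile normalization leaves genes this bright limited room to rise together, and how much was not tested. Signs are given for named genes called under either setting, and those of some genes called under neither turned too. After quantile normalization the members raised and lowered against DMSO were 3 and 1 with the luteolin label (median change 0.04), 5 and 2 with the gefitinib label (0.08) and 6 and 2 with the combination label (0.07), the gefitinib label had 5 higher and 3 lower than the luteolin label (0.02), the combination label 3 and 2 (0.03), and the combination label had 2 higher than the gefitinib label. The signs of RPLP0, RPL36AL, RPS6, RPL7A and RPS3A turned with the gefitinib label (-0.20, -0.26, -0.04, -0.64 and -0.20), RPL5 came to 0.00, and with the combination label RPLP0, RPL36AL and RPS6 turned (-0.21, -0.11 and -0.08). Both other forms of scaling were chosen after seeing the data. The shares of all genes called under them are not reported here, so their counts do not set the members apart. Without scaling 0 members were raised against DMSO with any drug label and 0, 3 and 4 were lowered with the luteolin, gefitinib and combination labels, at medians of -0.11, -0.08 and -0.16. The gefitinib label had 0 higher and 2 lower than the luteolin label (0.04), and the combination label 0 higher (-0.05). The signs that turned with the gefitinib label were those of RPLP0 (-0.33), RPLP2 (-0.05), RPL36AL (-0.39), RPS6 (-0.19), RPL7A (-0.81), RPL5 (-0.21), RPS3A (-0.41), RPL22L1 (-0.75), RPL26L1 (-0.25) and RPL39L (-0.35), and with the combination label those of RPLP0 (-0.37), RPL36AL (-0.31), RPS6 (-0.32), RPL11 (-0.02), RPL5 (-0.15), RPL10L (-0.19), RPL26L1 (-0.67), RPL7L1 (-0.83) and RPL3L (-0.02), and RPL7L1 turned between the combination and luteolin labels (-0.20). With each array centred on the members, which turns every value into one relative to the set, 0 were raised against DMSO with any drug label, 3 were lowered with the gefitinib label, and 2 were higher and 3 lower with the gefitinib than with the luteolin label and 0 higher with the combination label, at medians of 0.05, 0.05 and 0.08 against DMSO and 0.01 and 0.03 against the luteolin label. There RPLP0 (-0.20), RPL36AL (-0.26), RPS6 (-0.06), RPL7A (-0.69), RPL5 (-0.08), RPS3A (-0.29), RPL22L1 (-0.63), RPL26L1 (-0.12) and RPL39L (-0.22) turned with the gefitinib label, RPLP0 (-0.13), RPL36AL (-0.07) and RPS6 (-0.08) with the combination label, and RPL7L1 between the combination and luteolin labels (-0.12). The cause was not tested.

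Grouping by the file names moved the labels and so the results. The members raised and lowered against DMSO were then 68 and 2 for luteolin (median 0.79), 1 and 0 for gefitinib (0.14) and 80 and 1 for the combination, with 2 higher and 56 lower for gefitinib against luteolin (-0.65), 3 and 1 for the combination against luteolin (0.18) and 76 and 1 for the combination against gefitinib (0.83). By file name RPLP0, RPL4 and RPS27L changed by 0.58, 0.65 and -0.81 with luteolin, RPLP0, RPL26L1 and RPL39L by -0.12, -0.28 and -0.47 with gefitinib, and RPS27L, RPL39L and RPL7L1 by 0.41, 0.69 and -1.63 with the combination. RPS27L was 1.53 higher with gefitinib than with luteolin, RPS27L, RPL39L and RPL7L1 differed by 1.22, 1.66 and -1.75 between the combination and luteolin, and RPL39L and RPL7L1 by 1.17 and -1.26 between the combination and gefitinib.

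Other settings mostly moved counts. Apart from the 2-fold threshold with the gefitinib and combination labels against DMSO, shares of all genes under these settings are not reported here. The counts in this paragraph therefore do not set the members apart. Normexp lowered 1 member with the luteolin label and 6 with the combination against the gefitinib label, and median scaling 1 and 5, at a luteolin median of 0.10. Without the filter 21 were higher and 1 lower with the combination than with the luteolin label, and with probes above background on all arrays 1 was lowered with the luteolin label. The slide as a block gave medians of 1.12 and 0.98 for the gefitinib label against DMSO and the luteolin label, and 1 lower with the combination than with the luteolin label. Fitting only the groups compared raised 3 with the luteolin label and 31 with the combination label, and gave 3 higher and 1 lower for the combination against the luteolin label. At 2-fold 0, 37 and 8 were raised with the luteolin, gefitinib and combination labels and 0 lowered with the last, 10 were higher with the gefitinib and 2 higher and 1 lower with the combination than with the luteolin label. Against 0 h the luteolin median was 0.19 and 1 member was lowered with the combination label. The median over probes raised 2 with the luteolin label. The 1-sample test of the methods raised and lowered 4 and 4 members with DMSO, 14 and 2 with the luteolin label (median 0.19), 27 with the gefitinib label, and 0 and 1 with the combination label, unadjusted, and after adjustment it raised 0 and lowered 0 in each. Deviations of same-numbered arrays correlated between -0.10 and 0.29 over 10 pairs of groups, 6 of them over 0.1, and the labels name no shared culture or day, so the numbers were not taken as pairs. Most same-numbered arrays share a slide, the exceptions being 0 h replicate 1 and gefitinib replicate 2 on slide 3. With the replicate block 80, 67 and 1 were raised with the gefitinib, combination and luteolin labels against DMSO, and every call count stayed within 1.5 times. Leaving out each array in turn gave medians of -0.05 to 0.12 for DMSO, 0.11 to 0.16, 0.86 to 1.09 and 0.54 to 1.02 for the luteolin, gefitinib and combination labels against DMSO and 0.72 to 0.94 for the gefitinib against the luteolin label, with 0 to 2 raised and 0 to 1 lowered with the luteolin label, 58 to 80 raised with the gefitinib label and 5 to 79 raised and 1 to 2 lowered with the combination label. Between labels it gave 39 to 79 higher for the gefitinib and 2 to 78 higher and 1 to 2 lower for the combination against the luteolin label, and 2 to 32 lower for the combination against the gefitinib label, the 32 without combination replicate 2. The 2 arrays a group limit the precision, and RPL3L was dim besides.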

Other observations

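Mitochondrial ribosomal protein genes, which encode the ribosome inside mitochondria were called in both directions. Of 75 tested, 1 was raised and 19 lowered with the luteolin label at a median change of -0.32, 29 were raised and 8 lowered with the gefitinib label at 0.10, and 7 were raised and 12 lowered with the combination label at -0.11. Of all genes 13.8%, 34.1% and 25.6% were raised and 11.7%, 21.7% and 15.7% lowered, so that the raised with the gefitinib label and the lowered with the combination label were near that share. After quantile normalization 0 were raised and 23 lowered, 9 raised and 22 lowered, and 4 raised and 25 lowered, with medians of -0.33, -0.27 and -0.33. Of all genes 24.2% were then raised and 23.8% lowered with the gefitinib label, and 17.9% and 20.1% with the combination label. The 22 lowered with the gefitinib label were not far from that share. The shares with the luteolin label after this normalization are not reported here. Of 66 with a promoter entry 6, or 9.09%, had the TOP pattern at a RefSeq start.

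Among 17 tested regulators of TOP mRNA translation, RPTOR, the scaffold of mTOR complex 1 (KIAA1303 in the array's own names), read 2.04 and 2.20 with DMSO, -0.30 and -0.10 with the gefitinib label and 1.03 and -0.22 with the combination label, with changes of -2.32 and -1.72 (limma, adjusted p = 0.00146 and 0.0072) and of -2.39 and -1.81 after quantile normalization. LARP1, which binds TOP mRNAs, read 3.89 and 3.90 with DMSO, and its changes were 0.01, 0.43 and -0.05 with the luteolin, gefitinib and combination labels (limma, adjusted p = 0.964, 0.0698 and 0.836), of which the gefitinib value turned to -0.19 after quantile normalization. RPS6KB1, the S6 kinase, was raised with the gefitinib and combination labels by 1.28 and 0.83 (limma, adjusted p = 0.000677 and 0.00627), and EIF4EBP1, a repressor of cap-dependent translation, with the luteolin and gefitinib labels by 0.73 and 1.06 (limma, adjusted p = 0.0134 and 0.00167), and by 0.80 and 0.51 after quantile normalization. These were picked after their values were seen. In all, 2 regulators were raised and 1 lowered with the luteolin label, 5 and 4 with the gefitinib label, and 3 and 3 with the combination label. The shares over all genes were 13.8% and 11.7%, 34.1% and 21.7%, and 25.6% and 15.7%. Both counts with the gefitinib label were near these shares. So were the raised with the luteolin label and the lowered with the combination label.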
